A study of Homo sapiens with 4 samples.

Results

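The genes described here encode 8 secreted factors that cells release under stress or use to signal to their surroundings. They are GDF15, PGF, VEGFA, VEGFB, HBEGF, STC2, ADM and VGF. They were followed in SY5Y, a human neuroblastoma cell line labelled MYCN wild type, 12 h after treatment with 3 μM SGSS05-NS or with the solvent DMSO. RNA-seq gave 2 libraries per condition and 4 in all. The labels name the compound SGSS05-NS, while the study calls its covalent inhibitor of the histone methyltransferase SETD8 SGSS05-NS3. For this cell line the study gives the dose of the labels in several figure legends and a lower dose in its methods. A supplementary legend names both doses for RNA-seq values. All 4 libraries come from 1 cell line, and the study describes the 2 libraries of a condition as independent biological replicates. The 8 genes were picked out of 57820 gene rows because of what they encode and with their values in this same comparison known. Their differences between SGSS05-NS and DMSO are therefore given as a description without a p-value. All 8 had enough counts to pass the filter on low counts.

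GDF15 is a distant member of the TGF-beta family that is released by stressed cells and acts through the receptor GFRAL, with RET as co-receptor. PGF, VEGFA and VEGFB belong to the VEGF family, which drives the growth of blood vessels through the receptors FLT1 and KDR and the co-receptors NRP1 and NRP2. HBEGF is an EGF family ligand that is cut from the cell surface by ADAM proteases and binds EGFR and ERBB4. STC2 is a glycoprotein hormone that blocks the protease PAPPA, ADM is the precursor of the vasodilator adrenomedullin, and VGF is the precursor of several neuropeptides in neurons and endocrine cells. GDF15 is a known target of the ATF4 and CHOP arm of the integrated stress response, VEGFA and ADM are known hypoxia targets, and VGF is a known target of CREB.

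The sequences before the start sites of 4 genes are shown, because these genes span the range of responses: GDF15 and PGF had the largest fold changes, VGF the highest level, and VEGFB the smallest difference. They are the 250 bases before a RefSeq start site, 5′ to 3′ on the strand of the gene. The RefSeq windows are on GRCh38.p14, and each was found as an exact match on GRCh37, the build of the count files. On GRCh37 they lie at chr19:18496718-18496967 (plus strand) for GDF15, chr14:75422468-75422717 (minus strand) for PGF, chr7:100808851-100809100 (minus strand) for VGF and chr11:64001806-64002055 (plus strand) for VEGFB. PGF has a second RefSeq start site in the table, further along the gene, and the one used here lies just before the span that GENCODE gives PGF. GENCODE release 44 on GRCh37 also places exons of longer GDF15 transcripts upstream of and within its window. Capitals mark matches to the motifs named in the next paragraph.
GDF15: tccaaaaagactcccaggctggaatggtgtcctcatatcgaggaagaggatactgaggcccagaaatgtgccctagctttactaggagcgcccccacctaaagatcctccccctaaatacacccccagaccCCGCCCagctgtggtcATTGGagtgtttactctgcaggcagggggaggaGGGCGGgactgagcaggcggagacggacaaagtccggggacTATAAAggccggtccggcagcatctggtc
PGF: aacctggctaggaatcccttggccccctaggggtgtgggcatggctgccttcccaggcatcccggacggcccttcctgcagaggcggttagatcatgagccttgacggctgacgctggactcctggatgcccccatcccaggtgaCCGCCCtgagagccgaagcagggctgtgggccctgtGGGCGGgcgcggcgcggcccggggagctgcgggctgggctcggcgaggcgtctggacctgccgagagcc
VGF: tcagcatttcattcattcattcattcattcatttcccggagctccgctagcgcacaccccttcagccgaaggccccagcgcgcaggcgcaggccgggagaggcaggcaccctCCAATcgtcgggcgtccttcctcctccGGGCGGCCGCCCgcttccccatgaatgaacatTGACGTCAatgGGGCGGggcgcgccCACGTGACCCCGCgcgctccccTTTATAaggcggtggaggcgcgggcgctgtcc
VEGFB: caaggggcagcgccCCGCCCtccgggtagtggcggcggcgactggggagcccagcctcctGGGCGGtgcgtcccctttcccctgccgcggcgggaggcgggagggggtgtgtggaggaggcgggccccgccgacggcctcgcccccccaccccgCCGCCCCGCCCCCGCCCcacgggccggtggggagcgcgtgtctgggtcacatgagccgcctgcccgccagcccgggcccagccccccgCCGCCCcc

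The RefSeq table held 8 windows for 7 of the genes, 2 of them for PGF, and none for VEGFA. Each window runs over 300 bases, from 250 before to 50 after the start, and was searched on both strands. A TATA box (TATAAA) was found in the windows of GDF15, ADM and VGF, and in 11.5% of all 35116 windows. A GC box (GGGCGG) was found in 7 of the 8 windows, all but that of STC2, and in 45% of all windows. The cAMP response element (TGACGTCA), to which CREB binds, was found only in the window of VGF, from base -79 to -72 before the start, and in 1.85% of all windows. In VGF the match to the hypoxia response core (ACGTG, 21.4% of all windows) overlaps a match to the antioxidant response element (TGACNNNGC, 13.3% of all windows). The antioxidant element was also matched in the windows of STC2 and of the second PGF start. The CCAAT box (CCAAT, 34.6% of all windows) was matched in GDF15, STC2 and VGF. The heat shock element (GAANNTTC, 6.77% of all windows), the AP-1 site (TGANTCA, 7.71%) and the C/EBP-ATF composite site (TGATGNAAN, 3.61%) were matched in 0 of the 8 windows, which says only that these letters are not within these 300 bases. Base composition also set the windows apart. That of GDF15 had the lowest G and C content (59.3%) and the fewest CpG dinucleotides (11), and that of VEGFB the highest content (84.7%) and the most (42).

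The libraries held between 21463105 and 25350204 fragments on genes. Levels are given as CPM, counts scaled to a common library size after TMM scaling in edgeR, in which 1 fragment was worth between 0.0399 and 0.0451 CPM. The share of fragments that fell on no annotated exon was 12.3% and 12.4% with DMSO and 15.3% and 16.1% with SGSS05-NS, and the part of this difference in the results was not tested. Of 7 markers of the adrenergic type of neuroblastoma cell, 6 were above 1 CPM in each library, while TH, which encodes tyrosine hydroxylase, had between 0 and 2 fragments. Their summed level was 2099 and 2233 CPM with DMSO and 1251 and 1468 CPM with SGSS05-NS. Of 5 markers of mesenchymal-type cells or fibroblasts, FN1 and TWIST1 were above 1 CPM in each library and PRRX1 was at 0, with sums from 212 to 241 CPM with DMSO and from 152 to 155 CPM with SGSS05-NS. Markers of Schwann cells summed to at most 2.03 CPM with SOX10 at 0, those of endothelial cells to at most 0.0901 CPM and those of leukocytes to at most 0.180 CPM. KMT5A, which encodes SETD8, rose by 0.57 on the log2 scale, from 55.7 ± 1.53 to 82.9 ± 0.0952 CPM (SD, n = 2; adjusted p = 0.00037). This p and the others given are from the quasi-likelihood test of edgeR, adjusted by Benjamini and Hochberg's method over all genes tested. The compound acts on the protein, so this level is no check of its action.

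GDF15 went from almost silent to one of the more abundant of the 8 transcripts. GDF15 (ENSG00000130513.6, chromosome 19 from 18485541 to 18499986 on GRCh37) was counted 31 and 21 times with DMSO, and 3647 and 2693 times with SGSS05-NS. In CPM these were 1.24 and 0.899 against 164 and 114. Both treated libraries lay far above both DMSO libraries, and they also differed from each other by 1.44-fold. The log2 fold change was 7.01 (standard error 0.22), or 129-fold, and only 0.0729% of the 16468 genes tested had a larger one. In RNA of the whole culture, more cells that express a gene and more RNA per cell cannot be told apart.

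The 3 VEGF family ligands differed widely in size of response. PGF (ENSG00000119630.9, chromosome 14 from 75408537 to 75422329) had 5.22 and 5.26 CPM in the DMSO libraries and 49.1 and 52.5 CPM in the SGSS05-NS libraries. The replicates lay close together and the groups far apart, with a log2 fold change of 3.28 (standard error 0.12). This made a 9.68-fold difference. VEGFA (ENSG00000112715.16, chromosome 6 from 43737921 to 43754224), the main angiogenic factor of the family, had 37.3 and 36.3 CPM with DMSO and 60.5 and 62.6 CPM with SGSS05-NS. Its log2 fold change was 0.74 (standard error 0.09), a 1.67-fold difference with no overlap of the groups. It was 0.69 when fragments were counted without regard to strand, and exons of VEGFA overlap those of a non-coding gene on the opposite strand over 188 bases. VEGFB (ENSG00000173511.5, chromosome 11 from 64002056 to 64006736), which has little angiogenic activity of its own, had 29.8 and 31.3 CPM with DMSO and 29.3 and 28.5 CPM with SGSS05-NS. Both treated values lay just under both DMSO values, but the log2 fold change was -0.08 with a standard error of 0.10. As much as 36.9% of all genes tested had both treated libraries below both DMSO libraries.

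**Figure D1:**
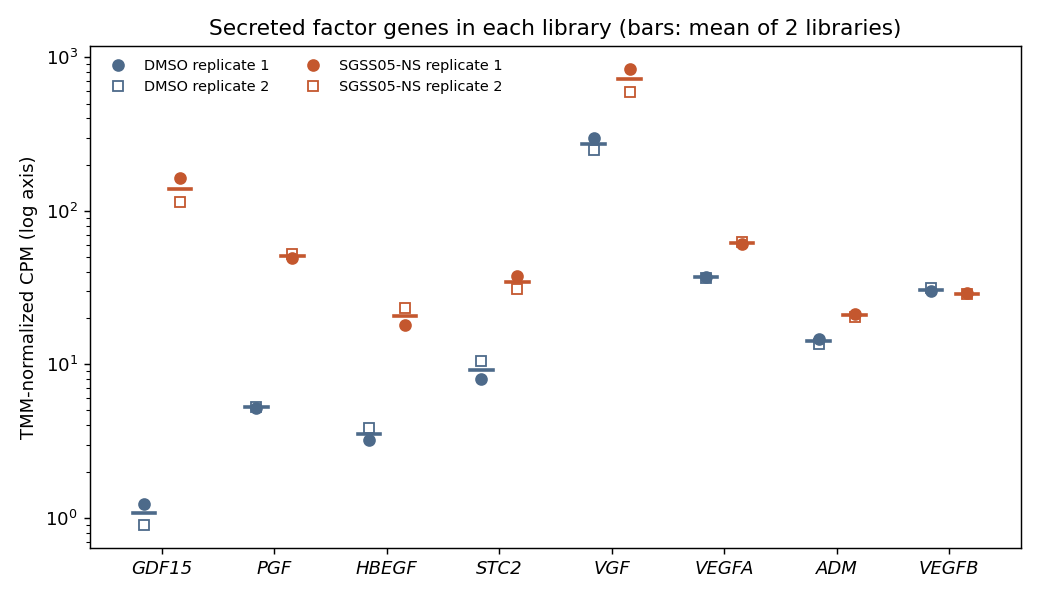
Level of each of the 8 genes in each library, as TMM-normalized CPM on a log axis, with genes ordered by log2 fold change. Filled circles are replicate 1, open squares replicate 2 and bars the mean of 2 libraries; the groups stand far apart for GDF15 (1.07 against 139 CPM) and nearly touch for VEGFB (30.6 against 28.9 CPM).

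HBEGF and STC2 followed PGF in size. HBEGF (ENSG00000113070.6, chromosome 5 from 139712428 to 139726188) had 3.19 and 3.85 CPM in the DMSO libraries and 18.0 and 23.2 CPM in the SGSS05-NS libraries. The log2 fold change was 2.55 (standard error 0.18), or 5.87-fold. STC2 (ENSG00000113739.6, chromosome 5 from 172741726 to 172755450) had 7.97 and 10.5 CPM with DMSO and 37.4 and 31.0 CPM with SGSS05-NS, and a log2 fold change of 1.89 (standard error 0.15), or 3.71-fold. For both genes the spread within a condition was small beside the gap between the conditions, and the libraries of the 2 conditions did not overlap.

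The 2 peptide precursors differed in level and in response. VGF (ENSG00000128564.5, chromosome 7 from 100805790 to 100808850) was already the most abundant of the 8 with DMSO, at 296 and 249.96 CPM, and had 843 and 599 CPM with SGSS05-NS. Its log2 fold change was 1.40 (standard error 0.15), or 2.64-fold, and the mean was higher by 448 CPM, against 138 CPM for GDF15. The treated libraries of VGF differed by 1.41-fold, about as much as those of GDF15, and in both genes replicate 1 was the higher one. ADM (ENSG00000148926.5, chromosome 11 from 10326620 to 10328944) had 14.5 and 13.7 CPM with DMSO and 21.3 and 20.5 CPM with SGSS05-NS, a log2 fold change of 0.57 (standard error 0.12), or 1.48-fold. Its 4 values fell into separate ranges by condition, although the gap was smaller than for the other genes with higher values.

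Of the 8 genes, 7 had both treated libraries above both DMSO libraries, an order found in 37.8% of all genes tested, and 1, VEGFB, had the opposite order. At the adjusted p-value of 0.001 that the study uses, 6 of the 8 were past the threshold as higher, and ADM and VEGFB were not past it. Of all genes tested, 6.37% were past it as higher and 8.14% as lower, but the genes were chosen on this contrast and nothing is read from their count. Their median log2 fold change was 1.65, and that of all genes tested was 0.01. Leaving out any 1 library kept the log2 fold change of GDF15 between 6.72 and 7.26, that of PGF between 3.23 and 3.31 and that of VGF between 1.13 and 1.63.

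**Figure D2:**
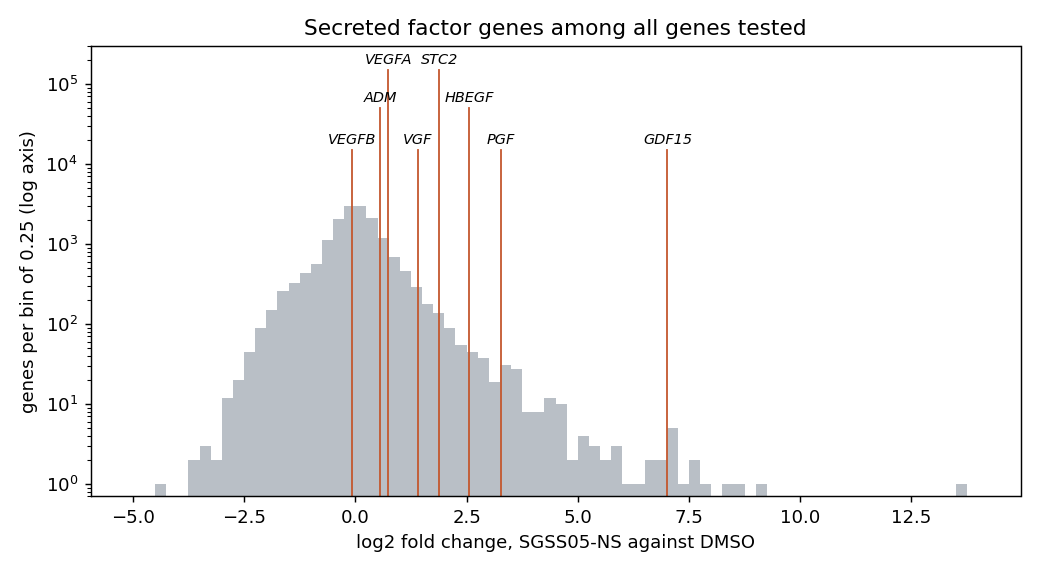
Distribution of the log2 fold change, SGSS05-NS against DMSO, over the 16468 genes tested (grey bars, genes per bin of 0.25 on a log axis), with a line for each of the 8 genes. VEGFB (-0.08) sits at the centre of the distribution and GDF15 (7.01) in its far right end.

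Levels can be compared between genes only per length. Divided by the length of all annotated exons of a gene, VGF led with DMSO at 102 ± 12.1 CPM per kb (SD, n = 2). VEGFB followed at 15.5 ± 0.546, ADM at 6.06 ± 0.272, VEGFA at 2.55 ± 0.0473, STC2 at 1.82 ± 0.351, HBEGF at 1.18 ± 0.157, PGF at 0.903 ± 0.00532 and GDF15 at 0.511 ± 0.114 CPM per kb (SD, n = 2). No neighbours in this order overlapped between their 2 libraries. With SGSS05-NS, GDF15 was second at 66.8 ± 16.9 CPM per kb, behind VGF at 269 ± 64.3 and ahead of VEGFB at 14.7 ± 0.272. ADM (8.98) and PGF (8.75) then overlapped in their 2 libraries, as did HBEGF (6.90) and STC2 (6.75), and VEGFA was last at 4.27 CPM per kb. The order depends on the length used. VEGFA has 14431 bases of annotated exon but a canonical transcript of 3609 bases, and PGF has 5804 against 1740. By the canonical transcript, a choice made after the data were seen, VEGFA had 10.2 CPM per kb with DMSO and ranked ahead of ADM, and PGF had 29.2 CPM per kb with SGSS05-NS and ranked next after GDF15. In both ways GDF15 was last with DMSO and second with SGSS05-NS, and VGF was first in both conditions.

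**Figure D3:**
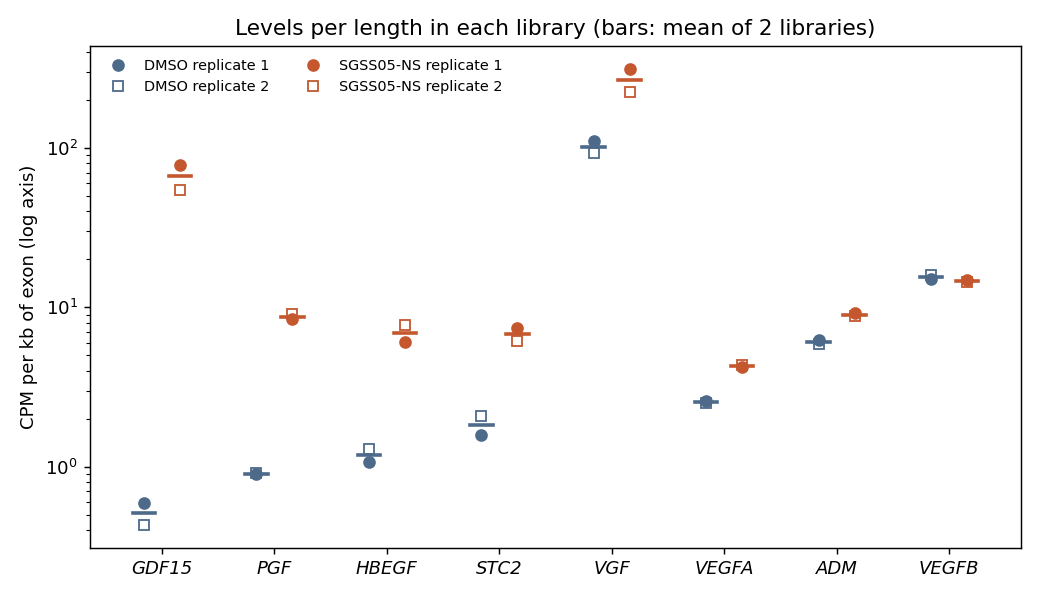
Level per length of each gene in each library, as CPM per kb of annotated exon on a log axis, with genes in the order of their log2 fold change. Filled circles are replicate 1, open squares replicate 2 and bars the mean of 2 libraries; GDF15 is the lowest gene with DMSO (0.511) and second to VGF with SGSS05-NS (66.8 against 269).

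The 8 genes are short. Their genomic spans run from 2.325 kb for ADM to 16.304 kb for VEGFA, and the median over the genes tested is 25.7 kb. This matters for what follows, because calls in this comparison differed with span. Of the 2833 genes tested with a span over 100 kb, 27.8% were lower and 1.48% higher at the threshold. Of the 4222 genes within the range of spans of the 8 genes, 1.87% were lower and 10.3% higher.

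The genes whose 4-library pattern was most like that of GDF15 were HMOX1, FOSL1, NECTIN4, GADD45B and OSGIN1. Likeness was measured over the 4 libraries as the root mean square distance between log2 CPM values (prior count 2), each gene centred on its mean, and it was 0.35 for HMOX1 and 0.72 for OSGIN1. HMOX1, which encodes heme oxygenase, went from 0.621 to 61.9 CPM. For PGF the nearest were MIR3191, NPPC, SIX4, NPAS4 and BAG3, at distances from 0.05 to 0.13. MIR3191 and NPPC were at 0 in both DMSO libraries and under 1 CPM with SGSS05-NS, and FOSL1, NECTIN4, GADD45B and NPAS4 had DMSO means from 0.0199 to 0.101 CPM, so the distances of these 6 depend on the prior count. OSGIN1 had a DMSO mean of 0.329 CPM, so the prior count enters its distance as well. With 2 libraries per condition, the pattern holds little beyond the size of the rise. BAG3, a co-chaperone gene, went from 7.62 to 63.5 CPM, and SIX4 from 1.09 to 10.3 CPM.

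The receptors of these ligands either had few fragments or did not rise. Of 18 receptor and co-receptor genes, 11 were tested, and 4 were lower and 0 higher at the threshold. This list and the partner lists below were drawn up with earlier results of these data known. Their counts and p-values describe this contrast and are no independent test. At an unadjusted p under 0.05 the count higher was 0. It was also 0 at the threshold with the likelihood ratio test and with DESeq2, and 1 when fragments were counted without regard to strand. The share lower was 36.4%, against 8.14% of all genes tested. The neuropilins NRP1 and NRP2, co-receptors of VEGF family ligands, both fell. NRP1 went from 17.1 ± 2.82 to 6.58 ± 0.256 CPM (SD, n = 2), or -1.38 on the log2 scale (adjusted p = 3.5e-05, edgeR). NRP2 went from 11.5 ± 0.849 to 4.17 ± 0.790 CPM, or -1.47 on the log2 scale (adjusted p = 5.1e-05, edgeR). Receptors of HBEGF fell as well. ERBB4 went from 3.91 and 5.35 CPM to 0.766 and 1.06 CPM, or -2.32 on the log2 scale (SE 0.28, adjusted p = 5.0e-05, edgeR). EGFR, named after its values were seen, went from 48.3 ± 7.84 to 24.3 ± 2.36 CPM, or -0.99 on the log2 scale (adjusted p = 8.3e-05, edgeR). These 4 are the 4 tested receptor genes with a span over 100 kb, and the longest of the other 7 spans 53.3 kb. Whether the span has a part in these falls was not tested.

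GFRAL, FLT1 and KDR, which bind GDF15 or VEGF ligands, were hardly present, while RET was expressed. GFRAL, the receptor of GDF15, had 0 fragments in all 4 libraries. A count of 0 allows up to 3 fragments, or at most 0.135 CPM in a library, which covers counting error only. FLT1, the receptor that PGF and VEGFB bind, had 1, 1, 1 and 0 fragments, and KDR, the main receptor of VEGFA, had between 2 and 7. RET, the co-receptor of GDF15, had 97.8 and 69.4 CPM with DMSO and 61.0 and 53.1 CPM with SGSS05-NS, and did not pass the threshold (adjusted p = 0.0074, edgeR). KDR and RET were also named after their values were seen. CALCRL, which forms the ADM receptor with RAMP2 or RAMP3, had between 2 and 8 fragments per library. RAMP2 had 5.52 CPM with DMSO and 4.06 CPM with SGSS05-NS, and RAMP3 had between 1 and 6 fragments per library. C3AR1, a receptor of a VGF peptide, had 1 fragment in all.

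Among 34 relatives of the 8 genes, most ligands were silent or did not pass the threshold. Of the 19 tested, 3 were higher (15.8%, against 6.37% of all genes tested) and 1 lower (5.26%, against 8.14%). Of the 34, 11 had under 10 fragments in all libraries together. The granin genes, which like VGF encode precursors in secretory granules, moved in different directions. CHGA, which encodes chromogranin A, fell from 688 ± 55.8 to 266 ± 6.38 CPM (SD, n = 2), or -1.37 on the log2 scale (SE 0.10, adjusted p = 1.1e-06, edgeR). SCG2, which encodes secretogranin II, rose from 55.2 ± 2.88 to 99.9 ± 13.8 CPM, or 0.86 on the log2 scale (adjusted p = 7.8e-05, edgeR). CHGB and SCG3 had log2 fold changes of 0.11 and 0.13 (adjusted p = 0.36 and 0.42, edgeR). The relatives of ADM rose: ADM2 from 1.23 ± 0.324 to 5.75 ± 0.731 CPM, or 2.23 on the log2 scale (adjusted p = 2.7e-05, edgeR), and CALCB from 4.69 ± 0.149 to 12.3 ± 2.93 CPM, or 1.40 on the log2 scale (adjusted p = 0.00011, edgeR). CALCB rose although it spans 177 kb. Among EGF family ligands, AREG, BTC and EGF had 0 fragments in each library and EREG had 1 in all. TGFA had 3 in all and EPGN 8. VEGFC was at 0, and PDGFD, another ligand of the wider family, had a log2 fold change of -1.32 that did not pass the threshold (adjusted p = 0.00104, edgeR).

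The enzymes that process or release the 8 proteins changed in both directions. Of 16 such genes, with IGF binding proteins and PAPPA proteases of the STC2 axis among them, 11 were tested, 1 was higher (9.09%, against 6.37% of all genes tested) and 3 were lower (27.3%, against 8.14%). FURIN, a convertase that cuts the GDF15 precursor and other proproteins, rose from 13.9 ± 1.11 to 37.5 ± 3.50 CPM (SD, n = 2), or 1.43 on the log2 scale (SE 0.12, adjusted p = 4.1e-06, edgeR). ADAM12, one of the proteases that can shed HBEGF, fell from 54.3 ± 6.24 to 20.2 ± 4.12 CPM, or -1.42 on the log2 scale (adjusted p = 1.1e-05, edgeR). ADAM17, another HBEGF sheddase, had 132 CPM with DMSO and 129 CPM with SGSS05-NS. PAM, which amidates ADM and other peptides, fell from 58.3 ± 5.44 to 34.4 ± 3.80 CPM, or -0.76 on the log2 scale (adjusted p = 0.00021, edgeR). IGFBP5, which PAPPA proteases cut, fell from 147 ± 26.0 to 75.2 ± 11.8 CPM, or -0.97 on the log2 scale (adjusted p = 0.00013, edgeR). Of the 3 lower genes, ADAM12 and PAM span 376 and 276 kb and IGFBP5 23.4 kb, while FURIN spans 15.0 kb. ADAM10, ADAM9, PCSK6 and CPE, which did not pass the threshold, span 161, 109, 235 and 137 kb. The neuroendocrine convertases PCSK1 and PCSK2, which process VGF in endocrine cells, had at most 3 and 5 fragments in a library, and PAPPA, the protease that STC2 blocks, had 0 in each.

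Among other secreted stress factors, those that passed the threshold were all higher. Of 30 genes, 14 had under 10 fragments in all libraries together and 15 were tested. Of these, 5 were higher (33.3%, against 6.37% of all genes tested) and 0 lower (against 8.14%). The likelihood ratio test and DESeq2 each called 1 lower. At an unadjusted p under 0.05, edgeR gave 1 lower. CSF1, a macrophage growth factor, rose from 0.727 ± 0.183 to 6.02 ± 1.11 CPM (SD, n = 2), or 3.05 on the log2 scale (adjusted p = 5.8e-06, edgeR). LIF, an IL-6 family cytokine, rose from 0.289 ± 0.0146 to 3.67 ± 1.05 CPM, or 3.64 on the log2 scale (adjusted p = 1.2e-05, edgeR). IL11 and CCN1, named after their values were seen, also rose. IL11 had 20 and 7 fragments with DMSO and 75 and 88 with SGSS05-NS. CCN1 had 8 fragments in the DMSO libraries together and 58 in the treated ones, a ratio of the scaled counts of 7.68 (exact binomial 95% interval 3.65 to 18.6, counting error only). All 5 stayed under 10 CPM, below each of the 8 genes with SGSS05-NS. Of these 5, only IL11 and CSF1 had over 10 fragments in a DMSO library, and when at least 10 counts were required in every library, 1 was called. IL6, TNF, IL1B and CCL2 had 0 fragments in all libraries, and FGF21, another circulating stress hormone, had 2 in all.

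VEGFA and ADM are known hypoxia targets, and 24 other hypoxia-responsive genes were listed beside them. Of the 22 tested, 3 were higher (13.6%, against 6.37% of all genes tested) and 1 lower (4.55%, against 8.14%). The other 18 did not pass the threshold. The median log2 fold change of the list was 0.19, against 0.01 over all genes tested. P4HA2, a collagen prolyl hydroxylase gene, rose from 5.32 ± 0.870 to 22.4 ± 3.49 CPM (SD, n = 2), or 2.07 on the log2 scale (adjusted p = 2.5e-06, edgeR). KDM3A, which encodes a histone demethylase, rose from 48.6 ± 5.08 to 96.4 ± 0.127 CPM, or 0.99 on the log2 scale (adjusted p = 1.5e-05, edgeR), and PFKFB3, a regulator of glycolysis, from 24.2 ± 3.00 to 38.9 ± 1.87 CPM (adjusted p = 0.00059, edgeR). LDHA, which encodes lactate dehydrogenase, fell from 611 ± 15.7 to 422 ± 9.56 CPM, or -0.53 on the log2 scale (adjusted p = 0.00063, edgeR). The higher genes P4HA2, KDM3A and PFKFB3 span 105, 52.1 and 110 kb, and LDHA spans 13.9 kb. PFKFB3 and LDHA did not pass the threshold with scaling by library size only (adjusted p = 0.0011 and 0.0012, edgeR). Without DMSO replicate 1 PFKFB3 did not pass it (adjusted p = 0.0025, edgeR), and without DMSO replicate 2 LDHA did not (adjusted p = 0.0013, edgeR). CA9 had at most 6 fragments in a library. EGLN3 and SLC2A1 had log2 fold changes of 0.02 and -0.03. CA9, EGLN3 and SLC2A1 were named after their values were seen and do not stand for the list. At an adjusted p under 0.05 (edgeR), 10 of its genes were higher and 2 lower.

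Among transcription factors known to act at the 8 genes, 3 had log2 fold changes above 4. Of 15 factors, 14 were tested, 7 were higher (50.0%, against 6.37% of all genes tested) and 1 was lower (7.14%, against 8.14%). This list, too, was drawn up with earlier results of these data known. DDIT3, which encodes CHOP, rose from 2.79 ± 0.0530 to 68.1 ± 13.5 CPM (SD, n = 2), or 4.61 on the log2 scale (adjusted p = 5.2e-09, edgeR). ATF3 rose from 3.89 ± 1.04 to 83.4 ± 27.9 CPM, or 4.43 on the log2 scale (adjusted p = 1.3e-07, edgeR), and EGR1 from 1.55 and 1.46 to 23.2 and 39.7 CPM, or 4.38 on the log2 scale (adjusted p = 3.1e-07, edgeR). Other higher factors, named after their values were seen, included XBP1, REST and ATF4, with log2 fold changes from 0.69 for ATF4 to 1.37 for XBP1. EPAS1, which encodes the hypoxia-inducible factor HIF-2 alpha, fell from 232 ± 6.84 to 99.4 ± 4.63 CPM, or -1.22 on the log2 scale (adjusted p = 1.8e-06, edgeR). HIF1A had a log2 fold change of -0.47 that did not pass the threshold (adjusted p = 0.0019, edgeR).

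**Figure D4:**
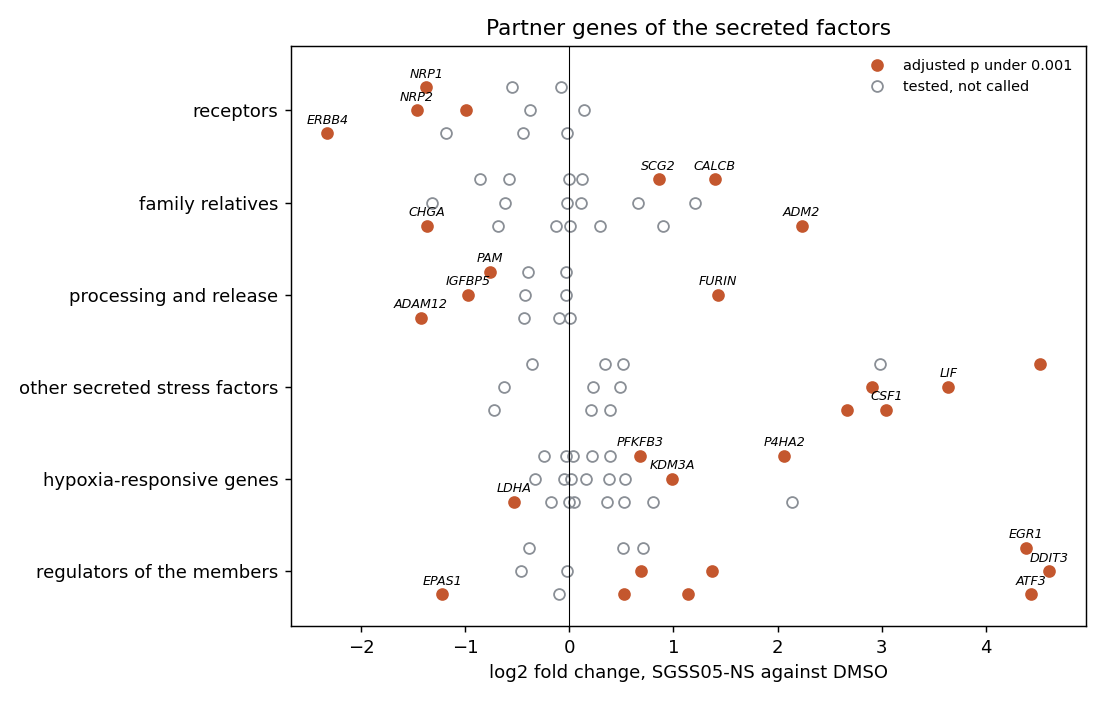
Log2 fold change, SGSS05-NS against DMSO, of each tested gene in 6 lists of partner genes of the secreted factors. Filled points passed the adjusted p-value of 0.001 and open points did not, with labels on some of the genes that passed; the 4 called receptors lie left of 0 and the 5 called secreted stress factors right of 2.5.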

How the data were processed

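RNA of SY5Y cells was sequenced in 2 DMSO and 2 SGSS05-NS libraries, grouped by their labels. Per the labels and the study's methods, the authors used Trimmomatic 0.30 to trim and STAR 2.4.2a to align to hg19. They deposited counts of fragments for each gene, not normalized. Each file holds 4 summary rows, which were left out, and 3 count columns. The reverse-strand column was used, since the forward one held between 4.64% and 5.05% of the fragments counted on either strand. Multimapping fragments are outside the gene counts. Symbols, positions and lengths came from GENCODE release 44 on GRCh37 by gene identifier (55538 of 57820 rows matched), a later release than the one used for counting.

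The test was the quasi-likelihood one of edgeR 4.0.16 (R 4.3.3) after filterByExpr and TMM, with Benjamini-Hochberg adjustment over 16468 genes and a threshold of 0.001. The authors used a likelihood ratio test in edgeR 3.10.5. The standard error is the log2 fold change divided by the square root of F. The script was tested on simulated data. The genes and the lists were chosen with earlier results of these data known. Named were all 8 genes, up to 3 higher and 3 lower genes per list by p-value, the 5 nearest patterns to GDF15 and PGF, KMT5A, and receptors or relatives with under 10 fragments. Any other partner gene was named after its values were seen. Alternatives were the authors' kind of test, DESeq2 1.42.0, other scalings, filters, strands and thresholds, the replicate number as a block, and each library left out. Replicates differed by more than sampling noise, with a chi-square of 8.76 (DMSO) and 11.8 (SGSS05-NS) for each degree of freedom. With 2 libraries per condition, the spread of a gene is largely estimated from other genes. Intervals cover counting error only. Results for some listed genes and 1 motif are not reported here.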

Additional observations from a re-analysis of the deposited data

Results flagged for a closer look

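The forward-strand column, which the comparisons above do not use, held fragments at 3 of the 8 genes that were above the DMSO libraries in both SGSS05-NS libraries and above 3 counts. For GDF15 the treated libraries held 8 and 9 such fragments, and the DMSO libraries 1 and 0. VEGFB counted 7 and 11 after treatment, against 1 and 1. STC2 counted 12 and 12 after treatment, against 1 and 1. The same pattern was found in 3814 of the 16468 genes tested, or 23.2%. HBEGF, which rose 5.87-fold on its own strand, had 0 forward-strand fragments in each library.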

How the results depend on the processing

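The log2 fold change of each of the 8 genes kept its sign under the other tests, scalings, filters, strand counting and the replicate block, and without each library. Each lay within the spread of its replicates of the main value, apart from VEGFA (0.69) with counts without regard to strand. For the left-out libraries this had to be so, because dropping a library moves a group mean by less than the SD of the pair. Nothing is read from it there. Among 22 named partner genes, the weaker results were those of PFKFB3 and LDHA given above.
Of the 8 genes, 6 passed the threshold, and 7 did with the likelihood ratio test, without a filter, with the block and at an adjusted p under 0.05.
The likelihood ratio test gave 2022 higher and 2267 lower genes against 1049 and 1341, with 6 hypoxia genes higher, and 2 relatives, 1 other secreted factor and 2 regulators lower. DESeq2 gave 2 relatives, 1 other secreted factor and 2 regulators lower, and its size factors in edgeR gave 2 relatives lower. Scaling by library size gave 0 hypoxia genes lower. Without a filter there were 2034 higher and 2570 lower genes, with 7 receptors, 4 relatives, 1 other secreted factor and 2 regulators lower and 6 hypoxia genes higher. With at least 10 counts in every library, 1 other secreted factor was higher, since fewer genes were tested. Counts without regard to strand gave 1 receptor higher and 2 relatives lower. At an adjusted p under 0.05 there were 3728 higher and 3903 lower genes, with 7 receptors, 5 relatives, 5 processing genes, 1 other secreted factor, 2 hypoxia genes and 3 regulators lower, and 10 hypoxia genes higher. The median level of the 8 genes with DMSO was 2.19 CPM per kb, 2.60 by the longest transcript and 6.23 by the canonical one.
The deviations of same-numbered libraries correlated at 0.05 over genes. The labels give these libraries only a number in common, and whether they share a batch was not tested. With the replicate block, 1759 genes were higher, and 3 relatives and 1 other secreted factor were lower. Leaving out each library gave from 1037 to 1279 higher and from 1322 to 1649 lower genes, and a median over the 8 genes from 1.43 to 1.82. It gave from 4 to 5 receptors, from 2 to 3 relatives, from 3 to 4 processing genes, from 0 to 1 other secreted factors, from 0 to 1 hypoxia genes and from 1 to 2 regulators lower. From 0 to 0 receptors, from 3 to 4 relatives, from 1 to 1 processing genes, from 4 to 5 other secreted factors, from 2 to 4 hypoxia genes and from 7 to 8 regulators were higher. The lone library of a condition is then assumed to vary like the other 2. Apart from the count with at least 10 counts in every library and the levels by other lengths, the cause of these moves was not tested.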

Other observations

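Several relatives of the 8 genes were too rare for the test and had more fragments with SGSS05-NS. PDGFA, a growth factor related to the VEGF family, had 2 fragments in the DMSO libraries together and 36 with SGSS05-NS, a ratio of the scaled counts of 19.1 (exact binomial 95% interval 4.91 to 164, counting error only). The treated libraries held 9 and 27 of them. INHBE, a TGF-beta family gene, had 4 and 19 fragments, a ratio of 5.03 with an interval from 1.67 to 20.3. CALCA, INHBB, MSTN and STC1 had 0 fragments with DMSO. Set against a limit of 3 counts over the DMSO group, the scaled treated counts gave ratios of 3.89 for CALCA, 3.53 for INHBB and 2.47 for MSTN and STC1. These ratios leave out the counting error of the treated libraries, so the true ratios can be lower. STC1, the closest relative of STC2, had 7 fragments with SGSS05-NS in all, where STC2 had 829 and 729. These values were looked at after the lists were known, and no test was run on them.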
